A study of Mus musculus with 50 samples.

Results

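A pair of tumour sets from one mouse model was compared: 18 tumours whose titles run from 1501 to 1592 and 22 whose titles run from 1601 to 1628. They were chosen by the numbers in their column headers, and they make up 40 of the 44 tumour columns of the deposited variant table and 40 of the 50 samples of the study. Each is the exome of a mesenteric lymph node tumour labelled as malignant plasma cells, from its own mouse of the IL6Myc genotype. Both sets carry the same labels for tissue, cell type, genotype and protocol. No strain, promoter, age or sex is given for either set, and the labels do not say what the title number stands for. The 5 wild-type Balb/c kidneys of the study carry the titles 1621 to 1624 and 1629. They were not analysed here, and neither were the 4 other tumour columns except to count carriers. Only DNA was measured, so the plasma cell label could not be checked against expressed markers.

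The IL6Myc mouse is a transgenic model of multiple myeloma, the cancer of antibody-secreting plasma cells. Interleukin 6 is a growth and survival signal of plasma cells, and Myc is a transcription factor that drives growth and is often activated in this cancer. Calls in a tumour exome are a mixture. A variant inherited with a stretch of chromosome lies in every cell of the mouse and comes with its neighbours on that stretch, whereas a variant gained by a cell lies only in that cell's descendants. B cells also mutate their antibody genes on purpose, through the enzyme AID, and AID is known to hit a few other genes, Myc among them.

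A variant was termed shared when at least 2 of the 44 tumours had it and private when 1 tumour had it. The deposited value of a call is read here as its read share, that is, the alternate base's percent of the reads there. Read depth is unknown. Where a tumour has no call, it may have the reference base or have had little coverage, and single read shares have no error of their own. Group values are means ± SD over mice. Differences were tested with a two-sided permutation test of the means over mice with 100000 resamples, whose smallest p is 1e-05, and Benjamini-Hochberg adjustment within each family of measures. Such p-values measure the spread between these mice and take the mice as independent. Whether any of the mice were related is not known here, and relatedness would make these p-values too small. Whatever else differed between the title ranges, such as the stock of mice or the sequencing, cannot be told apart from the title range itself.

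Tumours titled 1501 to 1592 had more calls. The number per tumour was lowest at 1898, had a median of 4499.5 and was highest at 5662, against 1940, 2329.5 and 3579 among tumours 1601 to 1628. The means were 4385 ± 1199 (SD, n = 18) and 2553 ± 571 (SD, n = 22), a difference of 1832 calls (95% interval 1255 to 2410, permutation test, adjusted p = 2.4e-05 over 12 measures). In all, 14 of the 18 tumours lay above every tumour of the other range. The 4 others were tumours 1588, 1589, 1590 and 1592, with 2262, 1898, 2918 and 2941 calls, which lay among the 22 or, in tumour 1589, below them.

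Shared calls made up most of this difference. They averaged 4086 ± 1145 (SD, n = 18) against 2381 ± 575 (SD, n = 22), a difference of 1705 (95% interval 1147 to 2261, permutation test, adjusted p = 2.4e-05). Private calls differed as well, with 158, 284.5 and 584 as the lowest, median and highest against 106, 179 and 248. Their means were 299.3 ± 109 (SD, n = 18) and 172.0 ± 41.4 (SD, n = 22), a difference of 127.3 (95% interval 77.1 to 178.7, permutation test, adjusted p = 2.4e-05), and 11 of 18 tumours lay above all 22. Insertions and deletions averaged 683 ± 149 against 457 ± 64.5, and protein-altering calls 349 ± 97.1 against 201 ± 47.96 (adjusted p = 2.4e-05 for both, n = 18 and 22, permutation test). For both measures 14 of 18 tumours lay above the whole other range. The ratio of missense to synonymous calls was 0.554 ± 0.0384 against 0.580 ± 0.0444, a difference of -0.0268 (95% interval -0.0540 to 0.000117, permutation test, adjusted p = 0.068).

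**Figure D1:**
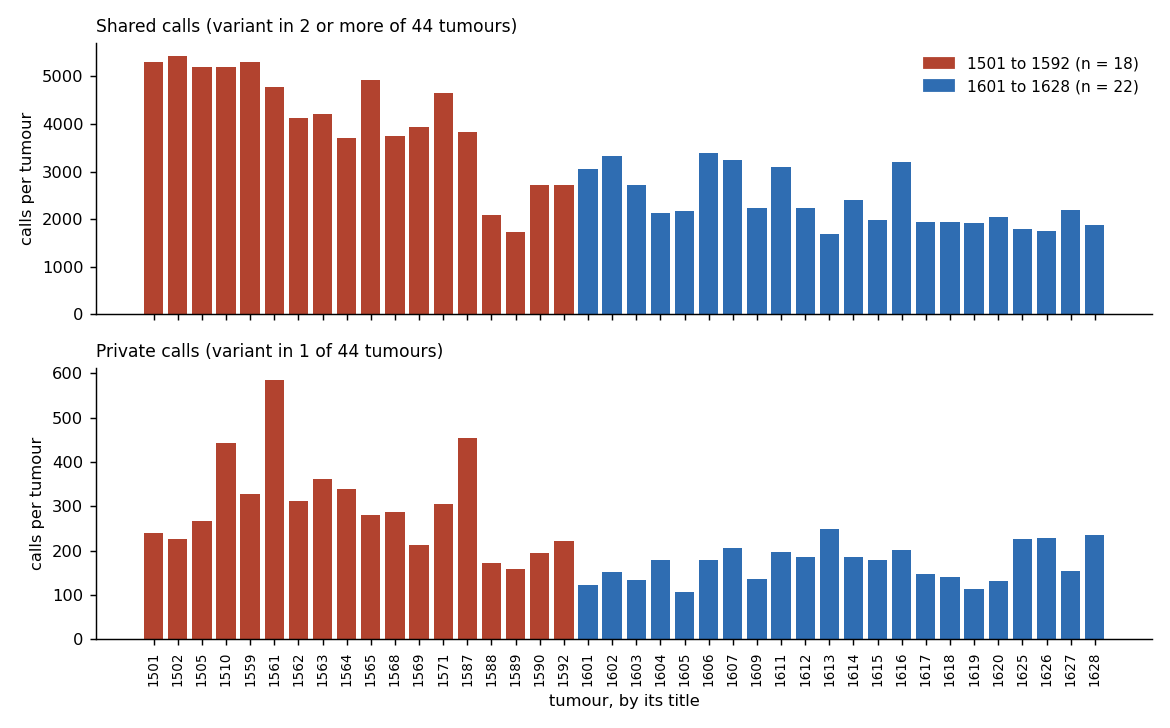
Shared calls (top) and private calls (bottom) of each tumour, in calls per tumour on the vertical axes, with the 40 tumours in title order along the horizontal axis and the title ranges in different colours. Of the 18 tumours titled 1501 to 1592, 14 stand above all 22 others in shared calls and 11 in private calls, and tumours 1588 to 1592 are the low ones at the end of the first range.

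The shared calls did not differ evenly over the genome. By chromosome, 9 of 20 (45% called) differed, and all 9 had more shared calls in tumours 1501 to 1592: chromosomes 3, 4, 5, 7, 11, 13, 16, 17 and 19. Chromosome 16 differed by the largest ratio of means. There, 12 of the 18 tumours had between 445 and 658 shared calls, and the other 6 had 5 to 11. The 22 tumours of the second range had 4 to 13, with a median of 8. The means were 377 ± 275 (SD, n = 18) and 8.27 ± 2.25 (SD, n = 22), a difference of 369 (95% interval 251.4 to 487.5, permutation test, adjusted p = 1e-04 over 20 chromosomes). So the first range held tumours of both kinds on this chromosome, and the second held only the low kind.

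The same split in levels was seen elsewhere. On chromosome 3, 12 of 18 tumours had 513 to 1276 shared calls and 6 had 11 to 169, against 13 to 454 in the other range (means 727 ± 528 and 223 ± 186, n = 18 and 22, permutation test, adjusted p = 0.0013). On chromosome 11, 9 tumours had 145 to 591 and 9 had 10 to 19, against 9 to 25 (means 147.3 ± 173 and 16.5 ± 4.34, n = 18 and 22, permutation test, adjusted p = 0.0011). Chromosome 13 had 9 tumours at 62 to 302 and chromosome 7 had 8 at 143 to 171, where no tumour of the second range passed 26 and 47. On chromosome 4 the means were 289.8 ± 181 and 97.4 ± 4.93 (n = 18 and 22, permutation test, adjusted p = 1e-04). Chromosomes 5, 17 and 19 differed by few calls, with means of 22.3, 16.1 and 19.2 against 18.5, 10.7 and 12.4.

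On other chromosomes the ranges overlapped widely. Chromosome 1 held the most shared calls in the second range and nearly as many in the first, 962.7 ± 40.7 (SD, n = 18) against 990.3 ± 48.2 (SD, n = 22), a difference of -27.7 (95% interval -56.7 to 1.67, permutation test, adjusted p = 0.0944). Chromosome 12 had 267.5 ± 12.6 against 279.7 ± 19.4 (adjusted p = 0.0533, n = 18 and 22, permutation test). Chromosomes 2 and 9 had tumours with many and with few calls in both ranges. On chromosome 2 the shared calls ran from 19 to 1335 among tumours 1501 to 1592 and from 12 to 1025 among tumours 1601 to 1628 (means 664 ± 521 and 352 ± 449, n = 18 and 22, permutation test, adjusted p = 0.0895).

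**Figure D2:**
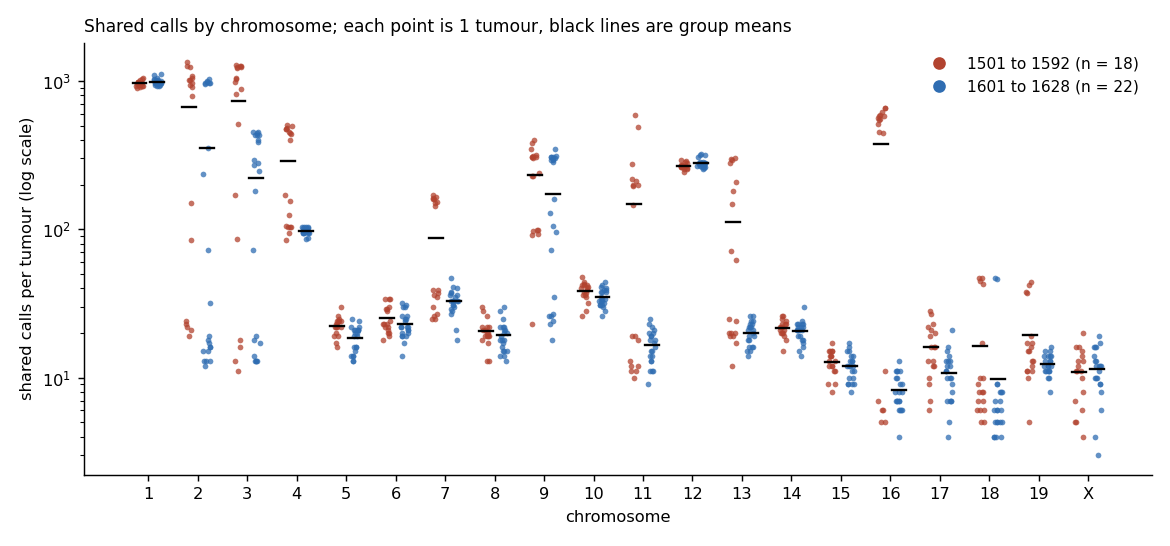
Shared calls of each tumour on each chromosome (vertical axis, log scale, calls per tumour), with 1 point per tumour, a colour per title range and a black line at the group mean. On chromosome 16 the 12 high tumours of the first range sit between 445 and 658 and all 22 of the second between 4 and 13, whereas on chromosomes 1 and 12 both ranges sit at about the same level.

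Fixed windows of 5 Mb with at least 20 shared variants showed where these calls lay. Of 90 windows, 43 (47.8%) differed in the share of the window's shared variants that a tumour had: 38 (42.2%) were higher in tumours 1501 to 1592 and 5 (5.56%) in tumours 1601 to 1628 (permutation test over mice, adjusted p under 0.05). A tumour with at least 50% of a window's variants was taken to carry it. By this measure 41 windows on 9 chromosomes were carried only by tumours of the first range, 0 only by tumours of the second, 20 by some of both, 11 by all 40 tumours, and 18 by none. The windows and the variants counted in them were both picked from these tumours' calls. Where only some tumours carry a stretch, its shared variants are mostly those of its carriers. A share near 0 in the other tumours is then partly built in. The rule for picking windows was the same for both ranges. Of the 20 windows carried by some of both, 0 passed the test. Without the 9 tumours titled 1505 to 1568, 23 windows passed.

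In chr16:30000001-35000000, with 143 shared variants, tumours 1501 to 1592 had 52.6% ± 37.7 of the variants called (SD, n = 18) and tumours 1601 to 1628 had 1.18% ± 0.452 (SD, n = 22), with 12 carriers against 0 (permutation test, adjusted p = 6.92e-05). In chr3:55000001-60000000 the values were 50.8% ± 36.6 and 0.0947% ± 0.307, again with 12 carriers against 0 (n = 18 and 22, permutation test, adjusted p = 6.92e-05). The first 10 windows by p, with ties ordered by the size of the difference and joined where they touch, lay at 30 to 40 and 50 to 60 Mb of chromosome 16, 30 to 40, 55 to 60 and 65 to 70 Mb of chromosome 3, 10 to 15 Mb of chromosome 4 and 125 to 130 Mb of chromosome 2. They had 8 to 12 carriers in the first range and 0 in the second. Within the first range the tumours fell apart on these windows. In chr16:30000001-35000000, 12 tumours had 71.3 to 85.3% of the variants and 6 had 0.699 to 1.40%.

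The 5 windows that were higher in tumours 1601 to 1628 were of another kind. Their differences ran from 3.29 to 7.94 percentage points. In 4 of them, 100 to 105 and 130 to 135 Mb of chromosome 1 and 100 to 105 and 115 to 120 Mb of chromosome 12, all 40 tumours were carriers. The fifth, 30 to 35 Mb of chromosome 7, had no carrier. Over the 11 windows that all 40 tumours carried, the share of variants called was 60.2%, 63.8% and 69.7% (lowest, median and highest) in tumours 1501 to 1592 and 61.95%, 65.9% and 73.4% in tumours 1601 to 1628. The means were 64.2% ± 2.69 (SD, n = 18) and 66.7% ± 3.21 (SD, n = 22), a difference of -2.53 points (95% interval -4.47 to -0.597, permutation test, p = 0.011). On average, in stretches that every tumour had, the first range thus had slightly fewer calls, not more. Tumours 1625 to 1628 were high in some of these windows. At 100 to 105 Mb of chromosome 12 they had 69.4 to 73.6%, and the others of their range 56.2 to 67.8%. At 100 to 105 Mb of chromosome 1 they had 63.2 to 68.4%, within the others' 53.9 to 68.4%. The difference without tumours 1625 to 1628 was not tested.

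**Figure D3:**
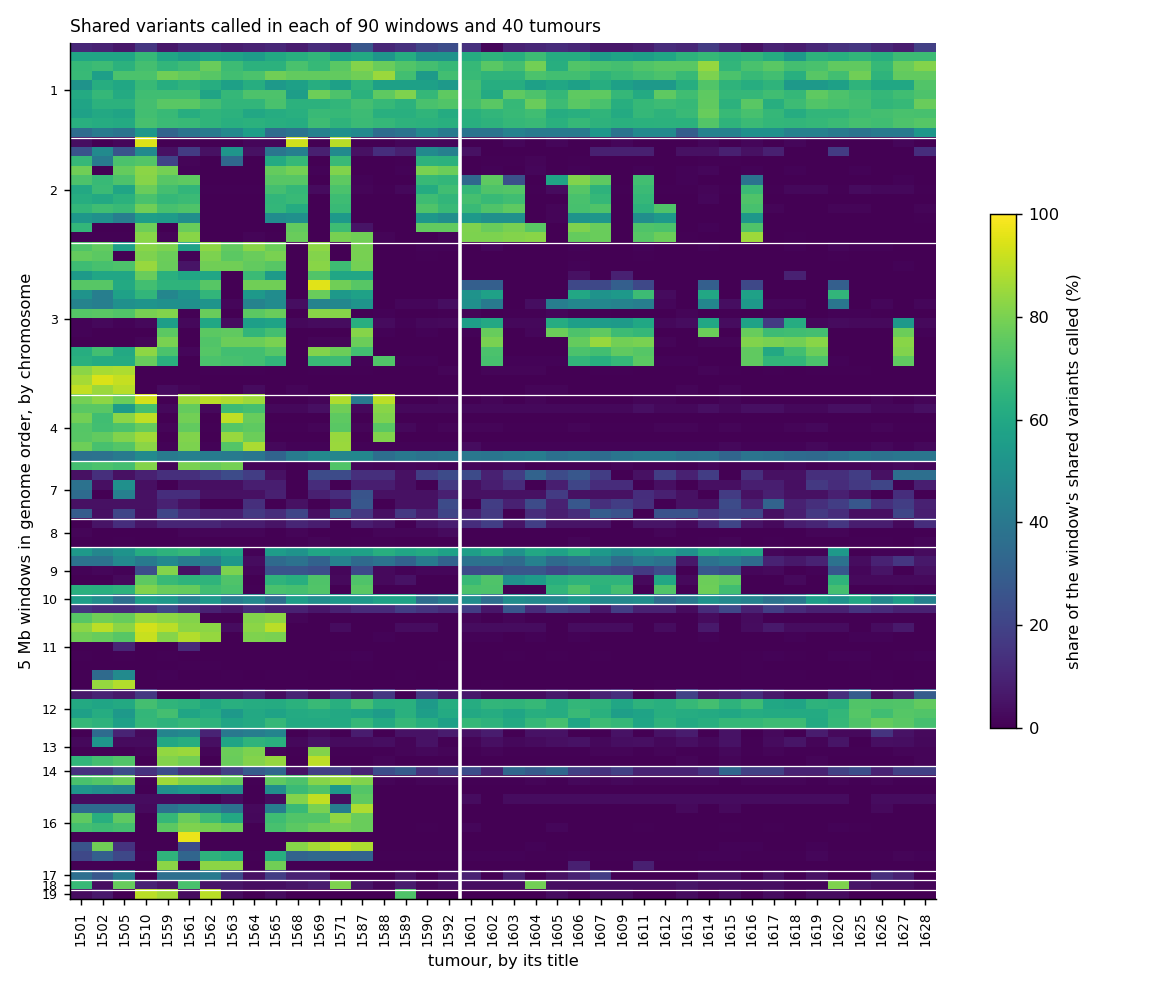
Percent of each window's shared variants that were called in each tumour, with 90 windows of 5 Mb as rows in genome order, marked by chromosome, and 40 tumours as columns in title order. The white vertical line separates 1501 to 1592 from 1601 to 1628. Most windows of chromosomes 1 and 12 are filled across both ranges, apart from the first window of each. Most windows of chromosomes 4, 13 and 16 and some of chromosome 11 are filled only left of the line, apart from the last window of chromosome 4. Those of chromosomes 2, 3 and 9 are filled partly on both sides.

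The called windows that only tumours of the first range carried were joined with the next such window in the order of tested windows, which gave 13 runs. This joining, and the limit of 25% called for carrying a run, were chosen after the data were seen, so the runs are described without a test. For 12 of the 13 runs no tumour of 1601 to 1628 reached 25% over the run as a whole. Part of a run could still be present, as at 70 to 75 Mb of chromosome 3. There, tumours 1601, 1602, 1609, 1614 and 1620 had 30.4% of the window's 23 shared variants. Tumours 1606, 1607, 1611 and 1616 had 21.7%, and the others of the second range had 0%. The 12 runs lay on 8 chromosomes and held 3614 shared variants, 243 of them protein-altering. The thirteenth, at 105 to 110 Mb of chromosome 9, reached 25% in 17 of 18 and 14 of 22 tumours. The number of the 12 runs a tumour carried was 10 in tumour 1502, 9 in tumours 1501 and 1559, 8 in tumours 1505, 1562 and 1565, and 7 in tumours 1510, 1561, 1563 and 1571. Tumour 1569 carried 6, tumour 1564 carried 5, tumours 1568 and 1587 carried 4, and tumours 1588, 1589, 1590 and 1592 carried 1 each. The 4 tumours with 1 run are those with the fewest calls of their range.

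The longest run, chr4:10000001-65000000, was carried by 9 tumours, and its variants had a median read share per carrier of 46.2 to 48.3%. The run at chr3:30000001-75000000 was carried by 10 tumours, with read shares of 47.8 to 49.3%. Both runs span stretches with too few shared variants to test. On chromosome 16 the runs at 30 to 40 and at 45 to 60 Mb had the same 12 carriers, and 10 of these also carried the run at 85 to 95 Mb. Other runs had other carriers: chr11:20000001-35000000 had 9, chr7:1-5000000 had 8, chr13:65000001-80000000 had 7, chr19:50000001-55000000 had 4 and chr3:145000001-150000000 had 3. Over these 12 runs the carriers' read shares lay between 43.75 and 53.4%. Different tumours therefore held different combinations of the same stretches.

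Read as single variants, 11049 shared variants had at least 2 carriers among the 40 tumours, and 2373 (21.5%) differed in the number of carriers (two-sided Fisher's exact test per variant, adjusted p under 0.05). Of these, 2346 (21.2%) had more carriers in the first range and 27 (0.244%) in the second. Among the 2373, 2327 had no carrier among tumours 1601 to 1628 and 2 had none among tumours 1501 to 1592. Variants of 1 stretch come together, so this is a count of linked variants. Without tumours 1505 to 1568 the count was 1510. Among the 40 tumours, 4827 of the 11049 variants were seen only in the first range, 592 only in the second and 5630 in both. Without a test, 1478 variants were in at least 9 of the 18 tumours and none of the 22, and 0 were in at least 11 of the 22 and none of the 18. A further 677 variants were in all 40.

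Of the called variants, 199 altered a protein, and the one with the smallest p in each run is named here. On chromosome 16 these were Bex6 p.Pro59Ala, p.Gly269Val in the olfactory receptor gene Olfr186 and 4932438H23Rik p.Ile83Val, each in 12 of 18 and 0 of 22 tumours (Fisher's exact test, adjusted p = 0.000105). On chromosome 3 they were p.Ser391Arg in Bche, which encodes the serum enzyme butyrylcholinesterase, in 12 and 0 tumours (adjusted p = 0.000105, Fisher's exact test), and p.Thr38Ile in Apoa1bp in 10 and 0 (adjusted p = 0.000593). Adra2b, an adrenergic receptor gene on chromosome 2, had p.His227Arg in 10 and 0. Acyp2, an acylphosphatase gene on chromosome 11, had p.Gly4Trp in 9 and 0, as did the sulfatase gene Arsk on chromosome 13 with p.Arg144His (adjusted p = 0.00133 for both, Fisher's exact test). On chromosome 4, 1110037F02Rik had p.Ser1632Thr in 11 and 0 tumours (adjusted p = 0.000337). On chromosome 7, AU018091 p.Thr200Met was in 8 and 0 tumours (adjusted p = 0.00337). In smaller runs the leading variants did not pass, namely Sorcs1 p.Thr946Ala in 4 and 0 tumours (adjusted p = 0.117) and Clca5 p.Leu729Ser in 3 and 0 (adjusted p = 0.223). The same holds for p.Ala289Val in the ADP-ribosyltransferase gene Parp3 of the chromosome 9 run, with 17 and 14 tumours (adjusted p = 0.106). Among these variants the median read share lay between 45.5 and 55.6%.

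Some of the called variants fell in a microRNA gene or near a gene's start, and the sequences are printed because they show what the stretches carry outside proteins. Sequences come from RefSeq on GRCm38.p6. The first is the mature miR-3572-3p, at chr7:3656010-3656032 on the plus strand, in the chromosome 7 run. It is printed with its seed, bases 2 to 8, in capitals, and again with the variant base in capitals. The variant is U9C, counted from the 5′ end of the mature sequence, so it lies just outside the seed. It was called in 8 of 18 and 0 of 22 tumours (Fisher's exact test, adjusted p = 0.00337) with a median read share of 46.9% (31.25 to 52.4%). A deletion at position 3219553 of the same run falls in the Mir291b hairpin, at chr7:3219482-3219560 on the plus strand. It was also in 8 and 0 tumours, with a median read share of 44.03%, and the capitals in the printed stretch of the hairpin mark the reference bases of the call.
miR-3572-3p, seed: uACACUUGuccuucuuuccccag
miR-3572-3p, variant base: uacacuugUccuucuuuccccag
Mir291b hairpin, stretch: cauuuuguuugucuCUGugugu

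Windows from 250 bases before to 50 after RefSeq gene starts held 153 distinct tested shared substitutions, and 36 of them differed in carriers, in the windows of 35 genes. Over all shared variants 2373 of 11049 (21.5%) did, a share close to that near gene starts. Of the 39 pairs of a gene and a called variant, 38 had more carriers in the first range. Stretches of 29 bases around 6 of them are printed on the gene's strand, with the variant base in capitals and its position counted from the first printed base. The cystatin gene Stfa2 had C15T in 12 and 0 tumours (Fisher's exact test, adjusted p = 0.000105), at chr16:36408361-36408389 on the minus strand. Ndufb5, a gene of mitochondrial complex I, had G15A in 11 and 0 (adjusted p = 0.000337), at chr3:32736960-32736988 on the plus strand. The window of the mitochondrial ribosome gene Mrpl47 holds the same variant on the other strand. The mucin gene Muc1 had C15G in 10 and 0 tumours (adjusted p = 0.000593), at chr3:89229032-89229060 on the plus strand. Hao1, a hydroxyacid oxidase gene, had C15T in 9 and 0 (adjusted p = 0.00133), at chr2:134554351-134554379 on the minus strand. Orm2, of the acute-phase orosomucoids, had T15C in 8 and 0 (adjusted p = 0.00337), at chr4:63362416-63362444 on the plus strand. The single one with more carriers in the second range was C15T near Nrde2, in 2 of 18 and 14 of 22 tumours (Fisher's exact test, adjusted p = 0.00619), at chr12:100159733-100159761 on the minus strand. Whether any of these bases changes expression was not measured.
Stfa2: aaaaccctgagtctCtatgcttgctggat
Ndufb5: gctcgcaggaacggGccgctgccctcact
Muc1: cagcaggcaccagcCctgttccacctcac
Hao1: ttcatgaaaaccctCcagagtatctgagg
Orm2: tataaaagccactgTaccctccatccacc
Nrde2: accctttgggtctcCgcaccgccttgccc

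The 27 variants with more carriers among tumours 1601 to 1628 were few and mostly present in both ranges. On chromosome 1 lay 18 of them. An intronic variant of Tdp1, which encodes a DNA repair enzyme, was in 2 of 18 and 15 of 22 tumours (Fisher's exact test, adjusted p = 0.00272). Intronic variants of the troponin I gene Tnni1 and of Ppp1r12b were in 7 and 20 (adjusted p = 0.00407 for both). A 3' UTR variant of the anion transporter gene Slc26a9 was in 0 and 10 tumours (adjusted p = 0.00481, Fisher's exact test) with a median read share of 54.8%. The other variant with no carrier in the first range, in 0 and 9 tumours, was intergenic on chromosome 8 and had a median read share of 7.14%.

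By gene, 1419 had a protein-altering variant in at least 1 of the 40 tumours and 566 in at least 2. Of the 566, 149 (26.3%) differed in altered tumours, 146 (25.8%) with more in the first range and 3 (0.53%) with more in the second (two-sided Fisher's exact test, adjusted p under 0.05). In 141 of the 149 no tumour of 1601 to 1628 was altered, and in 131 all variants were shared ones. Private variants alone gave 0 called genes of 71 tested by the same test, and 0 at an unadjusted p under 0.05. Each private variant is in 1 tumour, and a gene altered in 3 and 0 tumours has p = 0.0826 by Fisher's exact test. Genes with so few altered tumours could not pass, so no conclusion is drawn from these counts of 0. Of the 146, 25 were among the 38 genes tested on chromosome 16, 22 among 31 on chromosome 4, 14 among 31 on chromosome 13 and 32 among 88 on chromosome 3. Chromosomes 7, 11 and 2 had 11 of 41, 11 of 40 and 16 of 95. Without tumours 1505 to 1568, 83 genes were called.

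The 20 genes with the smallest p lay on chromosomes 16 (15 genes), 3 and 4 (2 each) and 2 (1). They are of unrelated kinds. At 13 of 18 and 0 of 22 tumours stood the mucin gene Muc4, the neuronal scaffold gene Nbea and the olfactory receptor gene Olfr1173 (Fisher's exact test, adjusted p = 0.000111). Muc4 and Nbea each had 1 private variant beside shared ones, and the 1 variant of Olfr1173 was shared. At 12 and 0 tumours stood genes of protein modification and signalling: Senp5, which removes the modifier SUMO, the ADP-ribosyltransferase gene Parp14, the sialyltransferase gene St3gal6 and the tyrosine kinase gene Tnk2. With the same counts came the Golgi gene Golgb1, the complex I assembly gene Timmdc1, the zinc finger genes Zbtb11 and Zmat3, the matrix protein gene Abi3bp, the receptor genes Olfr19 and Olfr186, Bex6 and 4932438H23Rik (adjusted p = 0.000111 for all, Fisher's exact test). The centrosome gene Cep97 and 1110037F02Rik, named Virma in RefSeq and known for a part in RNA methylation, stood at 11 and 0. Tmem82 was altered in 14 and 2 tumours (adjusted p = 0.000325 for these, Fisher's exact test). The median read shares of the genes named here ran from 42 to 53.05%. Genes that lie on 1 stretch are not independent of each other. Olfactory receptor and mucin genes have close relatives or repeats, so their calls are less certain.

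Among the 3 genes with more altered tumours in the second range, Atrnl1 had p.Glu1309Lys in 1 of 18 and 11 of 22 tumours (Fisher's exact test, adjusted p = 0.0204). The mast cell carboxypeptidase gene Cpa3 had p.Arg209Gln in 10 and 21 (adjusted p = 0.023), and Pcdh15, a cadherin gene of sensory hair cells, had p.Ile685Val in 1 and 9 (adjusted p = 0.0495). Each was 1 shared variant, with a median read share between 43.4 and 48.6%.

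No gene of the lists of AID targets, myeloma and NF-kB genes, the IL6, JAK and STAT pathway or the Myc network was called, of 6, 4, 0 and 1 tested by Fisher's exact test, beside 149 of 566 (26.3%) over all genes. So few members were tested that their count of 0 says little against that share. The lowest unadjusted p was 0.203, for Cd40. Of 30 AID target genes 9 were altered in any of the 40 tumours, of 40 myeloma and NF-kB genes 8, of 16 pathway genes 3, and of 20 Myc network genes 2. The median difference in the percent of tumours altered was 1.01, -1.77, 5.56 and 5.05 points over the altered members, beside 5.56 over all 1419 genes. The CD40 receptor gene Cd40 carried 1 shared variant in 11 of 18 and 8 of 22 tumours (Fisher's exact test, adjusted p = 0.358), and the nucleotide hydrolase gene Samhd1 carried p.Glu260Asp in 7 and 7 (adjusted p = 0.964). The linker histone genes Hist1h1d and Hist1h1c were altered in 2 and 1 and in 1 and 3 tumours, Lrp1b in 2 and 2, and Cd83, Il4i1, the kinase gene Pim1 and the cell cycle kinase gene Cdk4 in 1 and 1.

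Private calls were more numerous in tumours 1501 to 1592 across kinds of substitution but not of insertion and deletion. Private substitutions numbered 110, 231.5 and 482 (lowest, median and highest) against 62, 125 and 192. Their means were 241.8 ± 95.9 (SD, n = 18) and 119.6 ± 32.2 (SD, n = 22), a difference of 122.2 (95% interval 78.7 to 166.6, permutation test, adjusted p = 2e-05), and 13 of 18 tumours lay above all 22. Private insertions and deletions averaged 57.5 ± 21.3 against 52.4 ± 14.7, a difference of 5.09 (95% interval -6.37 to 16.7, n = 18 and 22, permutation test, adjusted p = 0.39). Private protein-altering calls averaged 35.1 ± 14.002 against 20.6 ± 8.59 (n = 18 and 22, permutation test, adjusted p = 0.000463), with overlapping ranges of 21 to 65 and 7 to 48.

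Private calls were spread over the genome. The mean was higher in the first range on all 20 chromosomes and the difference passed on 17 (85% called, permutation test, adjusted over 20 chromosomes), with chromosomes 8, 12 and 14 as the exceptions. One tumour had a dense group of its own. Tumour 1561 had 159 private calls on chromosome 18, where no other of the 40 tumours had more than 10, and 132 of them had a read share of at least 40%. It still had 425 private calls elsewhere. Without tumour 1561 the difference in private calls between the ranges was 110.5, the lowest among the 40 values with 1 tumour left out.

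All 6 classes of private substitution, referred to the pyrimidine base, were more numerous in the first range (permutation test, adjusted p at most 0.0128 over 6 classes), and C>A differed by the largest ratio of means, 3.99. Private C>A calls numbered 10, 51 and 120 against 4, 13.5 and 28, with means of 59.4 ± 39.2 (SD, n = 18) and 14.9 ± 5.74 (SD, n = 22). Private C>T calls averaged 61.8 ± 21.3 against 37.7 ± 8.82, T>C 51.8 ± 25.5 against 28.9 ± 10.8, and T>G 40.7 ± 20.2 against 19.9 ± 8.97 (n = 18 and 22). As a percent of a tumour's private substitutions, C>A was 22.8% ± 10.8 (SD, n = 18) against 12.5% ± 3.66 (SD, n = 22), a difference of 10.3 points (95% interval 5.33 to 15.3, permutation test, adjusted p = 0.00032). C>T was 26.7% ± 5.40 against 32.1% ± 4.46 (n = 18 and 22, permutation test, adjusted p = 0.00366 over 6 classes). The shares of the other 4 classes did not pass the test.

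The C>A share was uneven within the first range. Of the 11 tumours above all 22, 9 were those titled 1505 to 1568 and the others were 1501 and 1502, at 22.7 and 24.6%. Those titled 1505 to 1568 had 31.8% ± 4.90 C>A (SD, n = 9), with 94.1 ± 19.6 such calls each, and the other 9 of the first range had 13.9% ± 6.55 and 24.8 ± 13.5 calls. Without tumours 1505 to 1568 the share differed by 1.34 points between the ranges (permutation test, adjusted p = 0.515). Those 9 tumours were high in the share itself, at 24 to 38.9%. Leaving them out therefore had to lower the difference, and no conclusion is drawn from that p. With calls of at least 20% read share alone the C>A share was 11.96% against 10.2%, a difference of 1.81 points (adjusted p = 0.361, n = 18 and 22, permutation test). The number of private calls still differed without those 9 tumours, by 70.8 (permutation test, adjusted p = 0.00842), at 242.9 ± 90.3 (SD, n = 9) against 172.0 ± 41.4 (SD, n = 22).

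The excess of private substitutions was seen at every level of read share. Below 10% they numbered 63.2 ± 28.8 against 36.4 ± 13.5, from 10 to 20% 88 ± 37.0 against 43.9 ± 13.9, and from 20 to 40% 41.9 ± 16.8 against 24 ± 12.5 (n = 18 and 22, permutation test, adjusted p at most 0.00037 over 4 levels). At 40% and above the values ran from 8 to 185 with a median of 36.5, against 5 to 31 with a median of 14, and 10 of 18 tumours lay above all 22. The means at this level were 48.7 ± 40.2 (SD, n = 18) and 15.3 ± 7.30 (SD, n = 22), a ratio of 3.18 (permutation test, adjusted p = 4e-05). The value of 185 is that of tumour 1561. Leaving out C>A, the means at 40% and above were 44.3 ± 37.3 against 13.8 ± 6.69, and 12 of 18 tumours lay above all 22 (n = 18 and 22, permutation test, adjusted p = 4e-05). For private C>A the ratio of means was greatest at the other end, below 10%, with 21.3 ± 17.5 against 3.95 ± 2.21 calls, a ratio of 5.39 (n = 18 and 22, permutation test, adjusted p = 2e-05). The difference between these ratios was not tested.

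**Figure D4:**
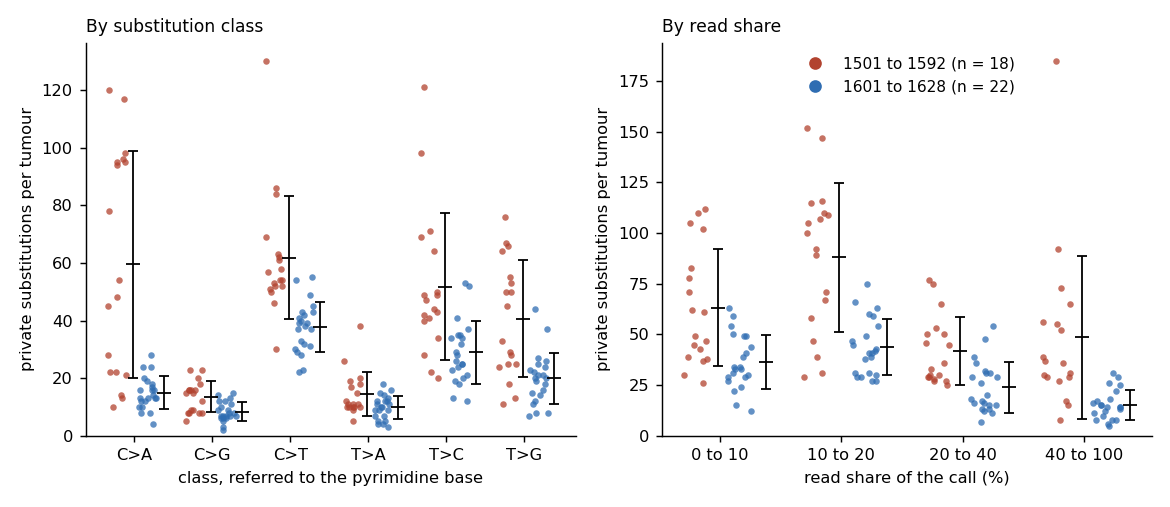
Private substitutions per tumour (vertical axes) by substitution class (left) and by read share in percent (right), with 1 point per tumour, a colour per title range, and black marks for the mean and SD. In C>A the first range spreads from 10 to 120 and the second from 4 to 28, and at read shares of 40% and above the medians are 36.5 and 14.

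The median read share of a tumour's private substitutions was 11.8%, 15.4% and 23.4% (lowest, median and highest) against 10.5%, 14.1% and 21.3%. The means were 16.2% ± 3.09 (SD, n = 18) and 14.8% ± 3.28 (SD, n = 22), a difference of 1.38 points (95% interval -0.687 to 3.42, permutation test, adjusted p = 0.198). Over private substitutions other than C>A it was 18.98% ± 6.24 against 14.7% ± 3.10 (n = 18 and 22, permutation test, adjusted p = 0.0128 over 3 measures), and over private C>A alone 13.1% ± 2.52 against 14.8% ± 4.12 (adjusted p = 0.143). Shared substitutions had 48.5% ± 0.609 against 47.7% ± 1.67 (adjusted p = 0.0969, n = 18 and 22, permutation test), and the highest value, 55%, was that of 1 tumour of the second range.

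By annotated effect, 7 of 8 classes of private call did not pass the test. Missense variants made up 10.2% ± 2.36 of private calls against 9.91% ± 2.79, and truncating or splice site variants 1.32% ± 0.515 against 1.20% ± 0.752 (n = 18 and 22, permutation test, adjusted p = 0.841 for both over 8 classes; differences of 0.284, 95% interval -1.39 to 1.96, and 0.120, -0.300 to 0.542). Intergenic variants differed, at 22.1% ± 4.41 against 26.7% ± 3.86 (adjusted p = 0.00824, n = 18 and 22, permutation test). Among shared calls intergenic variants were also a smaller part in the first range, 11.1% ± 1.45 against 13.6% ± 1.71 (adjusted p = 0.00048), and synonymous variants a larger one, 13.9% ± 0.740 against 13.03% ± 0.930 (adjusted p = 0.0121, n = 18 and 22, permutation test). Shared missense variants made up 7.07% ± 0.362 against 6.92% ± 0.492 (adjusted p = 0.454). The classes of shared substitution differed by about 1 percentage point at most, with C>T at 39.3% ± 0.754 against 38.3% ± 0.690 (adjusted p = 0.00015, n = 18 and 22, permutation test).

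Myc, at chr15:61985341-61990361 on GRCm38.p6, showed no detectable difference between the ranges. Private Myc calls ran from 0 to 5 with a median of 1 in both ranges. They averaged 1.17 ± 1.25 (SD, n = 18) and 1.14 ± 1.32 (SD, n = 22), a difference of 0.0303 (95% interval -0.800 to 0.864, permutation test, adjusted p = 1), and the tumour with 5 was 1587 in the first range and 1612 in the second. At least 1 private Myc call was found in 12 of 18 and 14 of 22 tumours (Fisher's exact test, p = 1), with median read shares of 17.8 and 17.95%. Missense variants were seen in 9 of 18 and 10 of 22 tumours, 12 and 14 distinct ones, and 5' UTR variants in 3 and 6 tumours, 6 and 8 distinct ones. Synonymous variants were seen in 4 and 8 tumours. Only 2 of the Myc variants were seen in both ranges, p.Leu115Val in 1 and 2 tumours and p.Asp125Val in 1 and 1.

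In the antibody loci, which hold the segments that B cells join and mutate, the private calls overlapped between the ranges. Summed over the heavy chain locus Igh and the light chain loci Igk and Igl they ran from 1 to 16 with a median of 7.5, against 0 to 13 with a median of 4. The means were 7.61 ± 4.53 (SD, n = 18) and 5.64 ± 4.45 (SD, n = 22), a difference of 1.97 (95% interval -0.909 to 4.89, permutation test, adjusted p = 0.198). Igk, at chr6:67555636-70726754, held the most, 4.83 ± 3.67 against 3.27 ± 3.30 (n = 18 and 22, permutation test, adjusted p = 0.477 over 8 measures), and 16 of 18 and 18 of 22 tumours had at least 1. Its private calls had a median read share of 18.75% in the first range and 9.9% in the second, over 87 and 72 calls and without a test. Igh, at chr12:113258768-116009954, had 1.28 ± 1.32 against 1.09 ± 1.11, and Igl, at chr16:19026858-19260844, had 1.5 ± 1.76 against 1.27 ± 2.19 (n = 18 and 22, adjusted p = 0.873 for both, permutation test). The interval of the sum is wide and leaves room for up to 4.89 more calls per tumour in the first range. That of Igk ran from -0.667 to 3.79, and those of Igh and Igl were narrower, -0.600 to 0.989 and -1.07 to 1.48. With shared calls included, Igh averaged 2.39 against 3.32, Igk 7.67 against 5.86 and Igl 1.72 against 1.45. Their adjusted p was 0.477, 0.477 and 0.873 (n = 18 and 22, permutation test). Shared Igh calls were in 9 of 18 and 18 of 22 tumours (Fisher's exact test, unadjusted p = 0.0458).

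The read share of shared variants could be compared in 23 windows where at least 10 tumours of each range had 5 or more shared substitutions. It differed in 1 (4.35% called), chr4:145000001-150000000. There the tumours' medians were 22.3%, 36.3% and 41.8% (lowest, median and highest) in the first range and 24.65%, 26.7% and 29.4% in the second. The means were 32.9% ± 6.97 (SD, n = 18) and 26.8% ± 1.35 (SD, n = 22; permutation test, adjusted p = 0.00667 over 23 windows). In the first range 10 of 18 tumours, at 35.8 to 41.8%, were above all 22. The others ran from 22.3 to 28.6%, and 4 of them were below all 22, tumour 1564 only just, at 24.62%. The window holds 214 shared variants, many in related predicted genes such as Gm13152, Gm13139 and Gm13157, where reads can be hard to place; the part of this in the difference was not tested. Over the 159 of its 182 substitutions that were called in both ranges, the means were 33.6% ± 7.36 and 26.8% ± 1.32 (n = 18 and 22). By these, 10 tumours of the first range were above all 22 and 3 were below.

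**Figure D5:**
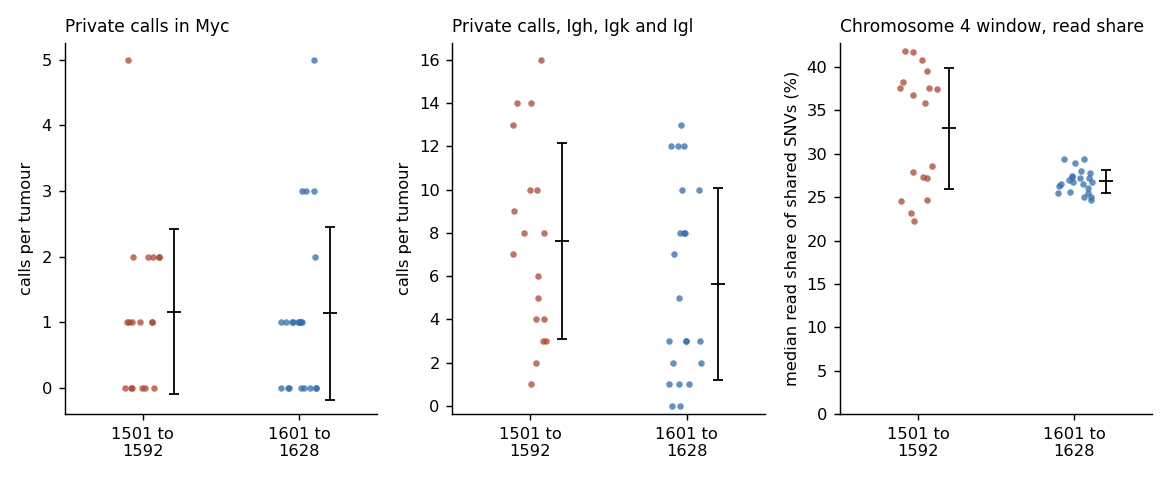
Private calls in Myc (left) and in the antibody loci (middle), in calls per tumour, and the median read share in percent over shared substitutions of the chromosome 4 window (right), with 1 point per tumour and the mean and SD in black. Myc calls span 0 to 5 in both title ranges, antibody locus calls 1 to 16 and 0 to 13, and the read shares of the second range stay between 24.65 and 29.4% while 10 of 18 tumours of the first lie above them.

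In the sharing of whole call sets, tumours of the same title range were more alike than tumours of different ranges. The Jaccard index, the shared variants 2 tumours have in common as a fraction of those either has, averaged 0.397 over 153 pairs within the first range, 0.492 over 231 pairs within the second and 0.341 over 396 pairs between them. Pairs within a range exceeded pairs between ranges by 0.113 (permutation of the title ranges over tumours, p = 1e-05, the smallest the resamples can give). The index also depends on how many shared calls each tumour has, with means of 4086 in the first range and 2381 in the second. It is therefore not independent of the difference in calls, and the part of that difference in the 0.113 was not tested. The lowest pair within the first range, at 0.197, was below the lowest pair between ranges, at 0.201, so likeness within the first range was uneven.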

How the data were processed

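Exomes were captured from genomic DNA with an Agilent SureSelect mouse exon design, per the labels' protocols, and GATK and the mm10 build are named in the submitters' processing notes; the sources used here give no versions, aligner or filters. Each deposited tumour cell holds a percent, read here as the alternate-read share, or a dot. A deposited count gives the tumours with a value in a row. Of 25823 rows, 199 with several alleles were left out and 25624 analysed. Samples were matched by title. Members and lists were chosen with earlier results of these data known. Tests used Python 3.11.15 with scipy 1.17.1 and numpy 2.4.6: permutation tests over mice, Fisher's exact tests on carriers, Benjamini-Hochberg adjustment at 0.05, and 95% intervals from inverted permutation tests (20000 resamples). They were tested on simulated data in which variants and tumours were independent, so linked variants and related mice were not covered. Protein-altering variants were missense, stop, start-codon, frameshift, in-frame indel and splice site changes, as annotated. Named were the 20 genes of smallest p (1 is not reported here), Myc, the antibody loci and list genes altered in at least 2 tumours, and per run of windows the protein-altering variant of smallest p. Further genes were chosen after their values were seen. Tumour 1292 was not analysed here. Alternatives were a minimum read share of 20%, ranks, other windows and minimums, substitutions only, and leaving out tumours.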

Additional observations from a re-analysis of the deposited data

How the results depend on the processing

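Depth is unknown, so calls missed for want of reads cannot be counted. Of 61 alternatives other than leaving out 1 tumour, 53 kept direction, side of the threshold or, for counts, a size within 1.5 times. The private C>A share differed by 1.81 points with calls of at least 20% read share and by 1.34 without tumours 1505 to 1568, and passed in neither. Tumours 1505 to 1568 were high in this share, so leaving them out had to lower the difference. Without those 9 tumours, the called variants were 1510, the called windows 23 and the called genes 83. Private variants alone gave 0 called genes, but genes with few altered tumours could not pass that test. The difference in private Myc calls was -0.0455 at 20% read share or more, 0 without tumours 1625 to 1628, and between -0.195 and 0.214 with 1 tumour left out. In the other 6 per-tumour results all 40 such omissions kept direction and side. No window could be compared in read share without tumours 1505 to 1568, which leaves 9 in that range. The comparison over substitutions called in both ranges was chosen after seeing the data and called the same number of windows, 1. No paired analysis was possible because the groups share no pairing: replicate numbers were given in accession order.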
